A study of Mus musculus with 12 samples.

Results

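Intermediate filaments give glial cells a flexible internal scaffold, and 4 genes of this family were examined here because they are the ones most used to describe glia: Gfap, Vim, Nes and Synm. They were taken by name as 4 rows of a table of 31053 genes, and all 4 were present. Gfap encodes glial fibrillary acidic protein, the classical filament protein of astrocytes. Vim encodes vimentin, the main filament protein of immature glia and of cells of mesenchymal and endothelial type. Nes encodes nestin, a large filament protein of neural progenitors, and Synm encodes synemin, which links filaments to the membrane and to other cytoskeletal proteins. Nestin and synemin form filaments only together with a partner such as vimentin, whereas vimentin can assemble alone. Rising Gfap with falling Vim and Nes is the textbook sequence when radial glia turn into astrocytes, and many grey matter astrocytes of the adult brain carry little Gfap.

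The cells came from the striatum of mice labelled wild type and were enriched by a magnetic sort for ACSA2, which astrocytes carry on their surface. The subventricular zone was left out at dissection, per the methods of the study. There were 4 droplet single-cell libraries, 2 postnatal and 2 from mice aged 3 months (3m), sequenced in 12 runs. The labels of the postnatal libraries contradict each other: the title of postnatal replicate 1 gives day 7 and its age tag day 3, and the reverse holds for postnatal replicate 2. The labels give the strain as mixed, whereas the methods of the study name C57BL/6Jax for brain tissue. The study also describes more preparations than the libraries analysed here, and for its postnatal cells it names the earlier of both days. Both libraries were kept as 1 postnatal group, and animals were pooled for each preparation, per the methods of the study. The labels do not say that the libraries came from separate litters, so p-values measure only the spread between these libraries.

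Expression was counted as unique molecular identifiers (UMIs), 1 per captured RNA molecule. Libraries held 7185335 to 11501049 UMIs, and 3117 of 4245 barcodes were kept as cells. By library these were 555 (postnatal replicate 1), 723 (postnatal replicate 2), 1120 (3m replicate 1) and 719 (3m replicate 2). Postnatal replicate 2 and 3m replicate 2 shared 95 cell barcodes, and the other pairs of libraries shared 0 to 2. In each shared pair the barcode with under 10% of the UMIs of the other was treated as a copy and left out, which removed 82 barcodes of 3m replicate 2 and 13 of postnatal replicate 2 (45 and 1 of them would have passed the filters on cells). A cell was assigned to 1 of 8 classes when at least 3 marker genes of the class were detected and their share exceeded that of every other class by 10 percentage points. None of the 4 filament genes was a marker. This gave 397, 571, 332 and 305 astroglia-like cells in the order above, and 563 and 294 oligodendrocyte-like cells at 3m against 1 and 0 in the postnatal libraries. Among the astroglia-like cells 17, 33, 9 and 2 lay near the limits of the gate. Their median was 72 to 184 UMIs of astroglial markers per cell, 0 or 1 of oligodendrocyte, precursor, endothelial, microglial, neuronal and ependymal markers, and 1 to 3 of mural markers.

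In GRCm38 (mm10), the build of the data, the GENCODE annotation places Gfap on chromosome 11 from 102887336 to 102900912 on the minus strand and Vim on chromosome 2 from 13573927 to 13582826 on the plus strand. Nes lies on chromosome 3 from 87971078 to 87980451 on the plus strand, and Synm on chromosome 7 from 67730160 to 67759742 on the minus strand. All are protein-coding genes. Gfap overlaps an antisense long non-coding gene, Gm26668, and Synm overlaps Ttc23 and Gm45102, also on the opposite strand. Stretches of 100 bases upstream of the RefSeq start, from base -120 to base -21, are shown so that the starts of the 3 genes can be compared by their letters. Capitals mark the motifs found.
Gfap, chr11:102897221-102897320, minus strand: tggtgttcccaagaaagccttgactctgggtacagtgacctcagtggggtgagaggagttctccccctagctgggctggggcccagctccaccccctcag
Nes, chr3:87970973-87971072, plus strand: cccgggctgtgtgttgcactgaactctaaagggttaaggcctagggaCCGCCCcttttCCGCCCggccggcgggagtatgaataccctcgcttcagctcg
Synm, chr7:67759763-67759862, minus strand: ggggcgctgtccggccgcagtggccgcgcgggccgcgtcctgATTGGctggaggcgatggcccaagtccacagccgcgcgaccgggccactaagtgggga

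The search covered both strands for 5 short motifs, and no matches overlapped in the 4 windows. The GC box, written GGGCGG, was found in Nes at -73 to -68 and at -62 to -57, and 22.6% of the 32851 promoter windows of the same length hold at least 1. The motif known as the CCAAT box was found in Synm at -78 to -74, and 19.2% of windows hold it. The Gfap window lies upstream of the RefSeq start but inside an intron of a longer Gfap transcript in GENCODE. The Vim window is not printed, because an exon of a longer Vim transcript in GENCODE covers it. It held a CCAAT box at -94 to -90 and, at -32 to -27, the sequence TATAAA of the TATA box, which 5.66% of windows hold. The remaining pair of motifs was found in none of the 4 windows. These were the E-box, searched as CANNTG and present in 35.0% of all windows, and the STAT motif, searched with the letters TTCNNNGAA and present in 2.59%. The Gfap window held none of the 5 motifs, which says only that these letters are not in these 100 bases.

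The first comparison asked how the 4 genes differed between the ages within astroglia-like cells. Gfap, Vim and Nes were lower at 3m, and Synm was close to the limit of detection at both ages. Counts of a library's astroglia-like cells were summed and are given as counts per 1000000 UMIs of the sum (CPM), with the 95% Poisson interval, which covers counting error only. For Vim the sums held 728 CPM (702 to 754) and 1220.2 CPM (1197 to 1244) in postnatal replicates 1 and 2, and 46.3 CPM (38.1 to 55.6) and 49.2 CPM (41.1 to 58.3) in 3m replicates 1 and 2. Both postnatal libraries lay far above both 3m libraries, with means of 974 ± 348 and 47.7 ± 2.05 CPM (SD, n = 2), a 20.4-fold difference. The log2 fold change of 3m over postnatal was -4.08 ± 0.29 (SE), with an adjusted p of 0.00130 in edgeR.

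Nes had 88.9 CPM (80.1 to 98.4) and 325 CPM (313 to 337) in the postnatal libraries, against 6.14 CPM (3.44 to 10.1) and 3.72 CPM (1.79 to 6.85) at 3m. The groups did not overlap, and the 3m values rested on 15 and 10 UMIs. The log2 fold change was -5.13 ± 0.74 (SE), with an adjusted p of 0.00503 in edgeR. At 3m these few UMIs were unevenly spread. The 6 and 3 astroglia-like cells with at least 3 UMIs of cell-cycle genes held 9 of the 15 and 5 of the 10 Nes UMIs.

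Gfap had 458 CPM (438 to 479) in postnatal replicate 1 and 85.6 CPM (79.6 to 92.0) in postnatal replicate 2. At 3m it had 26.2 CPM (20.2 to 33.5) and 22.7 CPM (17.4 to 29.2). Every postnatal value exceeded every 3m value, but the postnatal libraries themselves differed 5.35-fold. The log2 fold change was -3.23 ± 0.79 (SE), with an adjusted p of 0.0230 in edgeR. Without 3m replicate 1 or 3m replicate 2, which leaves 1 library at that age, the log2 fold change was about as large (-3.33 and -3.13) but the edgeR adjusted p was 0.110 and 0.128. Without postnatal replicate 1 the log2 fold change was -1.53.

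Between the postnatal libraries Gfap differed in the opposite direction to Vim and Nes. Postnatal replicate 1 had the higher Gfap, while postnatal replicate 2 had 1.68-fold more Vim and 3.65-fold more Nes. With 1 library on each side this difference has no replicate check, and whether it goes with age in days cannot be told apart from the library. Synm had 4.05 CPM (2.36 to 6.49) and 1.15 CPM (0.550 to 2.11) postnatally and 3.68 CPM (1.68 to 6.99) and 3.72 CPM (1.79 to 6.85) at 3m. These are 17, 10, 9 and 10 UMIs, the groups overlapped, and the log2 fold change was 0.91 ± 0.70 (SE) with an adjusted p of 0.341 in edgeR. A call needed both an adjusted p no higher than 0.05 and a log2 fold change of 1 or more in size. By this rule 3 of the 4 genes were called lower at 3m and 0 higher, whereas 10.4% of the 11867 genes tested were called lower.

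**Figure D1:**
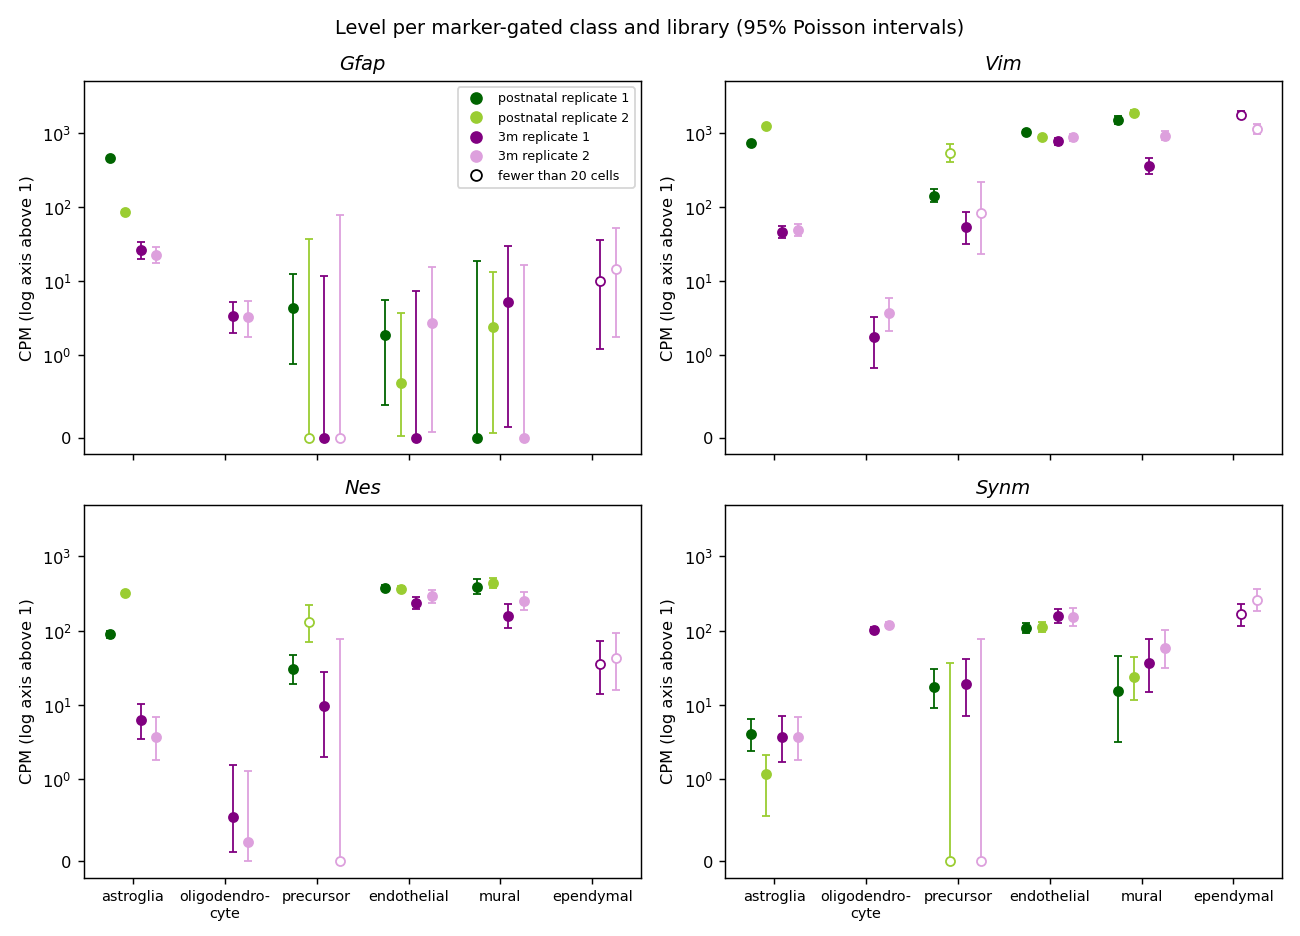
Level of each gene in each marker-gated class and library, in CPM on an axis that is logarithmic above 1 and linear below, with 95% Poisson intervals as bars and open circles for sums of fewer than 20 cells (classes with fewer than 5 cells are not drawn). Vim and Nes drop between the postnatal and 3m libraries in astroglia, Gfap is highest in astroglia, and Synm is higher in oligodendrocyte and endothelial sums than in astroglia.

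The share of cells in which a gene was seen depends on depth, so each cell was thinned to 2000 UMIs. This left out 68, 44, 35 and 38 shallower astroglia-like cells. Vim was seen in 64.1% (95% exact binomial interval 58.7 to 69.3) and 79.7% (76.0 to 83.1) of the postnatal cells, and in 6.06% (3.63 to 9.41) and 5.62% (3.18 to 9.10) of the 3m cells. Without thinning the shares were 80.6%, 96.5%, 19.0% and 16.1%. Unthinned, nearly all astroglia-like cells of postnatal replicate 2 held a Vim UMI, and most 3m cells held none.

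Nes was seen in 13.1% (9.62 to 17.2) and 44.2% (39.9 to 48.6) of thinned postnatal cells, against 1.01% (0.209 to 2.92) and 0.375% (0.00948 to 2.07) at 3m. Unthinned shares were 32.5%, 78.1%, 2.71% and 1.64%. Gfap was seen in 27.7% (22.9 to 32.8) and 13.5% (10.7 to 16.7) of thinned postnatal cells, and in 3.70% (1.86 to 6.53) and 3.37% (1.55 to 6.30) at 3m. Unthinned Gfap shares were 45.6%, 33.1%, 11.4% and 11.5%. Synm reached at most 1.12% of thinned cells in any of the 4 libraries.

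Free RNA can place single UMIs in cells that do not express a gene, so the shares were set against oligodendrocyte-like cells of the same 3m libraries. There Gfap was seen in 0.721% (0.197 to 1.83) of 555 thinned cells in 3m replicate 1. In 3m replicate 2 it was seen in 0 of 291 (0% to 1.26%). The Gfap shares of 3m astroglia-like cells lay above these values, and the intervals touched in neither library. Vim was seen in 0.360% and 0.344% of the oligodendrocyte-like cells, also below the 3m astroglia-like cells. Nes was seen in 0 of 555 (0% to 0.662%) and 0 of 291 (0% to 1.26%) of the oligodendrocyte-like cells. The intervals of these shares overlapped those of 3m astroglia-like cells, with 3 of 297 and 1 of 267. In the class sums before thinning, Nes had 6.14 CPM (3.44 to 10.1) and 3.72 CPM (1.79 to 6.85) in 3m astroglia-like cells against 0.533 CPM (0.110 to 1.56) and 0.232 CPM (0.00586 to 1.29) in oligodendrocyte-like cells. These intervals were apart in both libraries, with Nes higher in the astroglia-like sums. No order is read from the thinned Nes shares, because their intervals overlapped. Median depths were 9049 and 13274 UMIs in the oligodendrocyte-like cells and 5969.5 and 8441 in the astroglia-like cells before thinning. The difference in share between the ages was -66.1 percentage points for Vim, -27.9 for Nes, -17.0 for Gfap and 0.516 for Synm, and the two-sided exact permutation test gave p = 0.33 for each gene, which is the lowest value possible with 2 libraries an age.

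**Figure D2:**
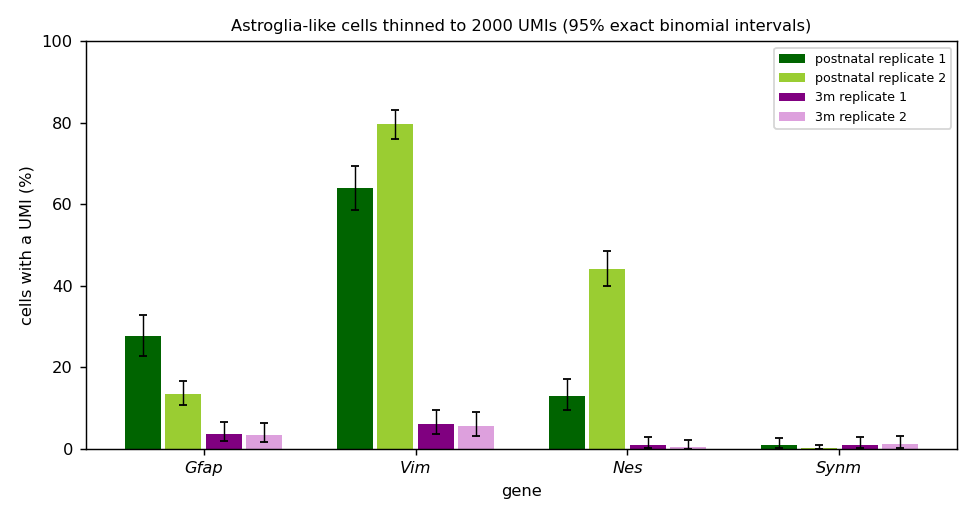
Share of astroglia-like cells with at least 1 UMI of each gene after thinning to 2000 UMIs, by library, with 95% exact binomial intervals as bars. Vim reaches 64.1% and 79.7% in the postnatal libraries and stays near 6% at 3m, while Gfap and Nes order the 2 postnatal libraries in opposite ways.

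The level per positive cell was also measured. In thinned postnatal replicate 1 a positive cell held 2.82 Gfap UMIs on average and up to 19, and 14 of 329 cells held at least 5. For Vim the mean there was 2.19, over more positive cells, and for Nes 1.07. In postnatal replicate 2 the mean over positive cells was 1.63 for Gfap, 2.89 for Vim and 1.47 for Nes, and for Gfap 3 of 527 cells held at least 5. At 3m no thinned astroglia-like cell held more than 3 Gfap UMIs.

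Co-detection was compared with what the shares of the single genes would give if they were independent, within each library and with no test, since cells of 1 library are not replicates. In postnatal replicate 1 Gfap and Vim were seen together in 71 of 329 thinned cells against 58.4 expected, a ratio of 1.22. In postnatal replicate 2 they were seen together in 59 of 527 against 56.6 expected, a ratio of 1.04. For Gfap and Nes the ratios were 0.925 and 0.828, and for Vim and Nes 1.02 and 1.04. These ratios ranged from 0.828 to 1.22, and for Gfap and Nes the mean of both libraries moved from 0.877 to 1.15 without thinning. When at least 2 UMIs of each gene were asked for, Gfap and Vim were seen together in 25 cells against 15.9 expected in postnatal replicate 1 (ratio 1.57), but in 12 against 12.8 in postnatal replicate 2 (ratio 0.939). At that threshold Vim and Nes were seen together in 3 cells against 1.04 expected and in 55 against 44.7, and Gfap and Nes in 0 against 0.419 and in 2 against 3.21. The libraries thus differed for Gfap and Vim, and the counts with Nes in postnatal replicate 1 are too small for a ratio. All 3 genes were seen in 2.13% and 4.36% of postnatal cells, and none of the 3 in 26.4% and 11.2%. At 3m 89.6% and 91.0% of cells showed none of the 3, and 0 of 297 and 0 of 267 cells showed Gfap together with Vim, where 0.667 and 0.506 were expected.

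A further split of postnatal astroglia-like cells asked whether cycling cells differed in the filament genes. Cycling cells were those with at least 3 UMIs over 10 cell-cycle genes, 36 in postnatal replicate 1 and 91 in postnatal replicate 2. Gfap was lower in them, with 140 CPM (114 to 172) against 520.1 CPM (497 to 545) in the other cells of postnatal replicate 1. In postnatal replicate 2 it was 10.4 CPM (7.04 to 14.7) against 125 CPM (116 to 134). Both libraries moved the same way, and the log2 fold change was -2.54 ± 0.21 (SE) with library as a block. Its edgeR adjusted p ranged from 1.9e-32 to 1.3e-04 over the settings with the same definition of cycling, so its exact size carries little information. At a threshold of 2 UMIs the log2 fold change was -0.86, under the fold needed for a call.

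Vim did not pass the test in the cycling split, with 673 CPM against 738 in postnatal replicate 1 and 1348 CPM against 1154 in postnatal replicate 2 (log2 fold change 0.12 ± 0.19, edgeR adjusted p = 0.686). Nes had 142 CPM against 78.6 and 412 CPM against 279, higher in cycling cells of both libraries. Its log2 fold change of 0.76 ± 0.19 had an edgeR adjusted p of 2.7e-04 but was under the fold needed for a call. So 1 of the 3 genes tested was called lower and 0 higher, against 8.05% and 9.01% of 11452 genes. Cycling cells were deeper, with medians of 15546.5 and 26867 UMIs against 8908 and 11172, and the part of depth was not tested.

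**Figure D3:**
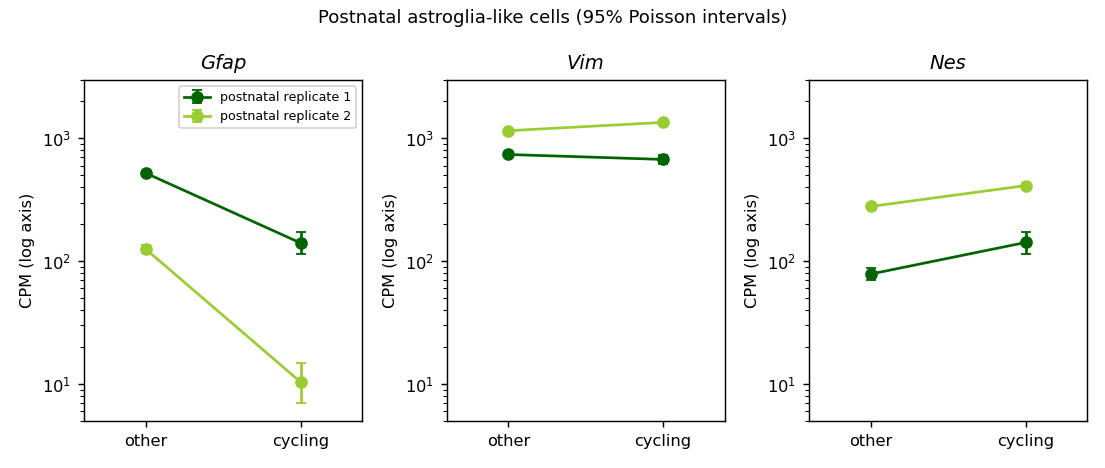
Level of Gfap, Vim and Nes in postnatal astroglia-like cells without and with at least 3 UMIs of cell-cycle genes, in CPM on a log axis, 1 line per library with 95% Poisson intervals. Gfap is lower in cycling cells of both libraries (140 against 520.1 CPM and 10.4 against 125 CPM), whereas Nes is higher in both.

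Postnatal astroglia-like cells were also divided by whether a thinned cell held a Gfap UMI, with 91 positive and 238 negative cells in postnatal replicate 1 and 71 and 456 in postnatal replicate 2. Vim had 945 CPM (809 to 1097) in positive and 609 CPM (541 to 684) in negative cells of postnatal replicate 1, but 1211 CPM (1037 to 1406) and 1144 CPM (1075 to 1215) in postnatal replicate 2. The higher Vim of Gfap-positive cells was therefore seen in 1 library beyond counting error, and the log2 fold change of 0.34 ± 0.24 did not pass (edgeR adjusted p = 0.999). Nes, at 65.9 against 71.4 CPM and 268 against 334 CPM, did not pass either. Across the other genes 0.245% of 6534 were called in either direction. Of the gene lists used, Hopx, a homeodomain gene of radial glia and astrocytes, was higher in Gfap-positive cells (log2 fold change 2.10 ± 0.30, edgeR adjusted p = 4.5e-09), and the cell-cycle gene Cenpf was lower (-4.48 ± 0.89, edgeR adjusted p = 5.6e-04). Hopx was the only gene called of 11 radial glia and progenitor genes tested, of which 5 lay above 0. The median of that list was -0.027, against -0.011 over all genes tested. Of 6 cell-cycle genes tested 1 was called, and 0 lay above 0. Hopx had 187 CPM in positive and 46.2 CPM in negative cells of postnatal replicate 1, and 338 CPM and 74.6 CPM in postnatal replicate 2. Cenpf had 5.49 CPM and 58.8 CPM, and 0 CPM and 98.7 CPM, so both genes differed in the same direction in both libraries. With only 1 postnatal library in the fit, no gene but Gfap, which defines the split, was called. At 3m only 11 and 9 cells were positive, and 0 Vim, Nes or Synm UMIs were counted in them, which allows up to 136 and 167 CPM. The 11 positive cells of 3m replicate 1 held more RNA of other cell types than the negative cells, with 4818 against 191 CPM of the myelin gene Mbp and 1182 against 68.2 CPM of Kif5a, a kinesin of neurons. In 3m replicate 2 these were 167 against 163 CPM and 0 against 34.9 CPM. Both genes were chosen after their values were seen, and the part of such RNA in the 3m Gfap values was not tested.

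The age difference was next examined in the 2 vascular classes, whose cells were captured beside the astrocytes. Endothelial-like cells numbered 31, 24, 56 and 41, and mural-like cells, assigned by markers of pericytes and smooth muscle cells, numbered 22, 35, 58 and 47. In endothelial-like cells Vim had 1029 CPM (980 to 1081) and 883 CPM (836 to 932) postnatally and 769 CPM (694 to 850) and 869 CPM (776 to 970) at 3m. Both postnatal values lay above both 3m values, the nearest pair being 883 and 869 CPM, and Vim did not pass (log2 fold change -0.43 ± 0.15, edgeR adjusted p = 0.0516). Nes had 378 CPM and 366 CPM postnatally and 238 CPM and 290 CPM at 3m, without overlap between the ages. Its log2 fold change of -0.71 ± 0.17 had an edgeR adjusted p of 0.00594 but stayed under the fold needed for a call.

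Endothelial Synm had 110 CPM (94.0 to 127) and 112 CPM (95.8 to 130) postnatally and 158 CPM (125 to 197) and 154 CPM (117 to 201) at 3m. It did not pass the test (log2 fold change 0.29 ± 0.18, edgeR adjusted p = 0.274). Gfap was too low in this class to be tested, with 3, 1, 0 and 1 UMIs. None of the 3 genes tested was called in endothelial-like cells, where 19.1% of 8690 genes were called in either direction. The postnatal endothelial-like cells held medians of 41325 and 44932.5 UMIs, against 7232 and 6636 at 3m. They also held 213 and 177.5 UMIs of mural markers per cell beside 278 and 339 of their own, against 21 and 20 beside 95.5 and 131 at 3m. Haemoglobin genes led the class at both ages, and S100a8 and S100a9 were also among its 10 leading genes postnatally. Their part in these values was not tested.

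In mural-like cells Vim was lower at 3m, with 1492 CPM (1325 to 1674) and 1871 CPM (1742 to 2007) postnatally and 359 CPM (279 to 455) and 911 CPM (789 to 1046) at 3m. The ages did not overlap, and the log2 fold change was -1.37 ± 0.34 with an edgeR adjusted p of 0.0210. Nes had 391 CPM and 439 CPM postnatally and 158 CPM and 254 CPM at 3m (log2 fold change -0.97 ± 0.26, edgeR adjusted p = 0.0286), just under the fold needed, which it passed without 3m replicate 2 (-1.34). Thus 1 of the 2 genes tested was called lower, against 6.21% of 3948 genes. The call on Vim was lost without 3m replicate 1 (log2 fold change -0.85) and with the stricter gate (edgeR adjusted p = 0.0878). The genes leading the class also differed between the ages. Postnatally 3 of the 10 leading genes were mural markers and Mgp and Col3a1, which encode a matrix protein and a fibrillar collagen, were also among them, whereas at 3m 6 of 10 were markers and neither gene was. Col3a1 had 484 and 439 CPM in the postnatal mural-like sums and 52.7 and 40.8 CPM at 3m (log2 fold change -3.26 ± 0.29, edgeR adjusted p = 1.4e-04). Mgp had 298 and 1034 CPM postnatally and 1440 and 1301 CPM at 3m and did not pass (edgeR adjusted p = 0.112). The part of such genes in the Vim and Nes values was not tested. Vim was also unevenly spread in the adult mural-like cells. In 3m replicate 2 all 201 Vim UMIs lay in 16 of 47 cells, whereas Nes was seen in 28 of them.

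**Figure D4:**
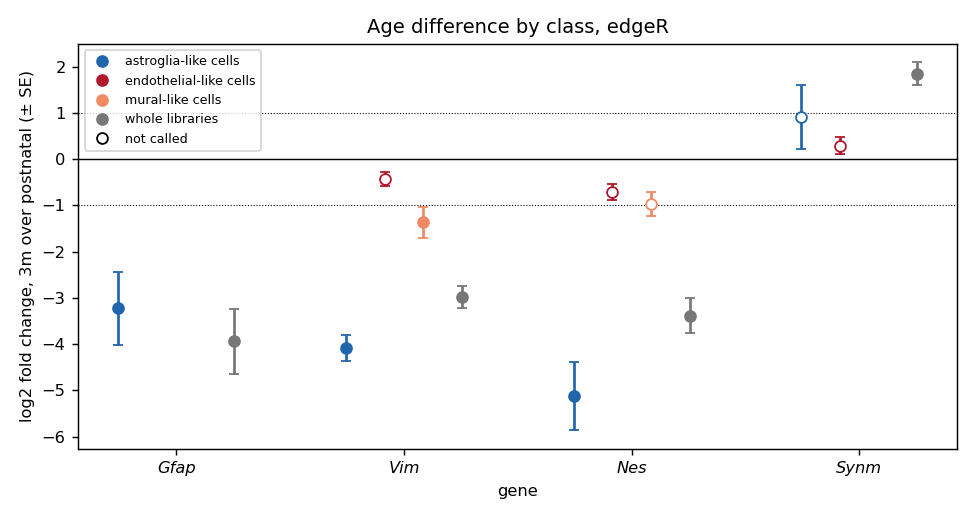
Log2 fold change of 3m over postnatal for each gene, with its SE, in astroglia-like, endothelial-like and mural-like cells and in whole libraries, from edgeR. Filled points were called, dotted lines mark a log2 fold change of 1 in either direction, and missing points are genes too low to be tested. Vim and Nes fall furthest in astroglia-like cells.

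Whether the age difference itself differed between classes was tested as an interaction in a joint fit of 17 class sums with library as a block. For Vim the log2 age difference in astroglia-like cells was lower than in endothelial-like cells by an interaction of -3.59 ± 0.35 (SE, edgeR adjusted p = 5.1e-07). The interaction against mural-like cells was -2.60 ± 0.36 (edgeR adjusted p = 1.2e-04). For Nes the interactions were -4.20 ± 0.54 (edgeR adjusted p = 1.5e-05) and -3.99 ± 0.60 (edgeR adjusted p = 3.1e-04). Of the genes tested these 2 were called in both interactions, where 5.05% and 1.92% of 12504 genes were called lower. So Vim and Nes were lower at 3m by more in astroglia-like than in vascular cells. Synm was not called in either (0.75 ± 0.53, edgeR adjusted p = 0.424, and -0.12 ± 0.94, edgeR adjusted p = 1.0). Without postnatal replicate 1 its interaction against endothelial-like cells was 1.69 (edgeR adjusted p = 0.0469). Gfap is not compared in this way, because the vascular sums held 0 to 3 Gfap UMIs.

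The classes were then compared at one age. At 3m Synm, unlike the other 3 genes, was higher in oligodendrocyte-like than in astroglia-like cells. Oligodendrocyte-like cells had 101 CPM (93.2 to 110) and 118 CPM (108 to 128) of Synm, and it was seen in 18.9% of thinned cells of both libraries, and in 56.8% and 69.4% without thinning. Its log2 difference from astroglia-like cells was 4.94 ± 0.25 (edgeR adjusted p = 4.5e-13). Vim (-4.08 ± 0.37), Nes (-3.35 ± 0.93) and Gfap (-2.80 ± 0.27) were lower in oligodendrocyte-like cells, with 10 and 16 Vim UMIs, 3 and 1 Nes UMIs and 19 and 14 Gfap UMIs. In this contrast 15.8% of genes were called higher and 24.2% lower.

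Among the 4 classes with at least 20 cells in both 3m libraries, Synm was ordered with endothelial-like cells first (158 and 154 CPM), oligodendrocyte-like cells next (101 and 118 CPM), then mural-like cells (36.9 and 58.9 CPM) and astroglia-like cells last (3.68 and 3.72 CPM). Endothelial-like and oligodendrocyte-like cells, the first neighbours, did not differ in the test (log2 difference 0.17 ± 0.18, edgeR adjusted p = 0.498). Mural-like cells were lower than oligodendrocyte-like cells by -1.60 ± 0.33 (edgeR adjusted p = 4.6e-04), a contrast in which 16.9% of genes were called lower. In ependymal-like cells, only 12 and 9 in number and so not tested, Synm had 165 CPM (113 to 231) and 259 CPM (181 to 358), and Vim 1768 CPM (1589 to 1962) and 1122 CPM (953 to 1312). Precursor-like cells of 3m replicate 1 had 19.0 CPM of Synm, from 6 UMIs.

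At 3m Vim, Nes and Synm were all higher in the vascular classes than in astroglia-like cells. The log2 differences of endothelial-like cells were 3.82 ± 0.27 for Vim, 5.45 ± 0.44 for Nes and 5.11 ± 0.32 for Synm, and all 3 were called, where 17.3% of genes were called higher. For mural-like cells they were 3.31 ± 0.28, 5.02 ± 0.51 and 3.33 ± 0.57, again all called, where 12% of genes were called higher. Gfap was the reverse, with 0 and 1 UMIs in the endothelial-like and 1 and 0 in the mural-like sums against 64 and 61 in the astroglia-like ones.

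In the postnatal libraries the Vim differences between these classes were smaller than at 3m. Endothelial-like cells differed from astroglia-like cells by 0.23 ± 0.23 in Vim (edgeR adjusted p = 0.417). Mural-like cells had more Vim than astroglia-like cells in both libraries, by 0.71 ± 0.23 (edgeR adjusted p = 0.0224), which was under the fold needed for a call. Nes was higher by 1.26 ± 0.28 (edgeR adjusted p = 7.2e-04) in endothelial-like and by 1.03 ± 0.30 (edgeR adjusted p = 0.0131) in mural-like cells. Both Nes calls were lost without postnatal replicate 1, with log2 differences of 0.45 and 0.38. Synm was higher by 5.86 ± 0.25 (edgeR adjusted p = 2.8e-14) and 3.21 ± 0.66 (edgeR adjusted p = 6.1e-04), and the mural call was lost without postnatal replicate 2 (log2 difference 1.74). Thus 2 of these 3 genes were called higher in each contrast, where 16.9% and 12% of genes were. Gfap went the other way, with 3 and 1 UMIs in the endothelial-like and 0 and 1 in the mural-like sums against 1923 and 747 in the astroglia-like ones. Postnatal oligodendrocyte precursor-like cells, 68 in postnatal replicate 1 and 8 in postnatal replicate 2, had 143 and 542 CPM of Vim, 30.3 and 130 CPM of Nes, and 3 and 0 UMIs of Gfap.

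In whole libraries, the sum of all kept cells, the age difference mixes these classes, and fewer cells of a type cannot be told apart there from less RNA per cell. Gfap had 276 CPM and 66.7 CPM postnatally and 9.78 CPM and 10.1 CPM at 3m (log2 fold change -3.94 ± 0.70, edgeR adjusted p = 0.00746). Vim had 762 CPM and 1152 CPM against 113 CPM and 105 CPM (-2.99 ± 0.24, edgeR adjusted p = 6.0e-04). Nes had 157 CPM and 322 CPM against 18.7 CPM and 22.8 CPM (-3.38 ± 0.38, edgeR adjusted p = 0.00175). The ages did not overlap for any of these genes. Synm went the other way, with 29.7 CPM and 17.9 CPM against 74.2 CPM and 79.0 CPM (1.85 ± 0.24, edgeR adjusted p = 0.00291). Hence 3 genes were called lower and 1 higher, where 13.4% and 15.8% of 14282 genes were called lower and higher.

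The classes that held the UMIs differed between the ages. Astroglia-like cells held 99.6% and 99.3% of the Gfap UMIs of the postnatal libraries and 66.7% and 76.3% at 3m. They held 57.3% and 81.9% of the Vim UMIs postnatally but 10.2% and 15.9% at 3m, when endothelial-like and mural-like cells together held 40.8% and 62.1% although they were 10.2% and 12.2% of the cells. Ependymal-like cells, 1.07% and 1.25% of the 3m cells, held a further 31.9% and 18.8% of the Vim UMIs. Of all UMIs, endothelial-like cells held 22.5% and 13.3% postnatally and 5.09% and 4.58% at 3m. Mural-like cells held 2.78% and 3.70% of all UMIs postnatally and 1.93% and 2.79% at 3m. For Nes the 2 vascular classes held 61.3% and 20.2% postnatally and 81.0% and 89.4% at 3m. For Synm they held 84.6% and 88.1% postnatally and 11.8% and 11.0% at 3m, when oligodendrocyte-like cells held 78.4% and 81.3%. Whole-library Synm was higher at 3m while neither astroglia-like nor endothelial-like Synm passed the test, though endothelial-like values did not overlap between the ages. Mural-like Synm, too low to be tested, had 15.4 and 24.0 CPM postnatally and 36.9 and 58.9 CPM at 3m. Oligodendrocyte-like cells were 50.3% and 40.9% of 3m cells against 0.180% and 0 of 723 postnatally. The part of each class in the whole-library Synm difference was not tested.

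**Figure D5:**
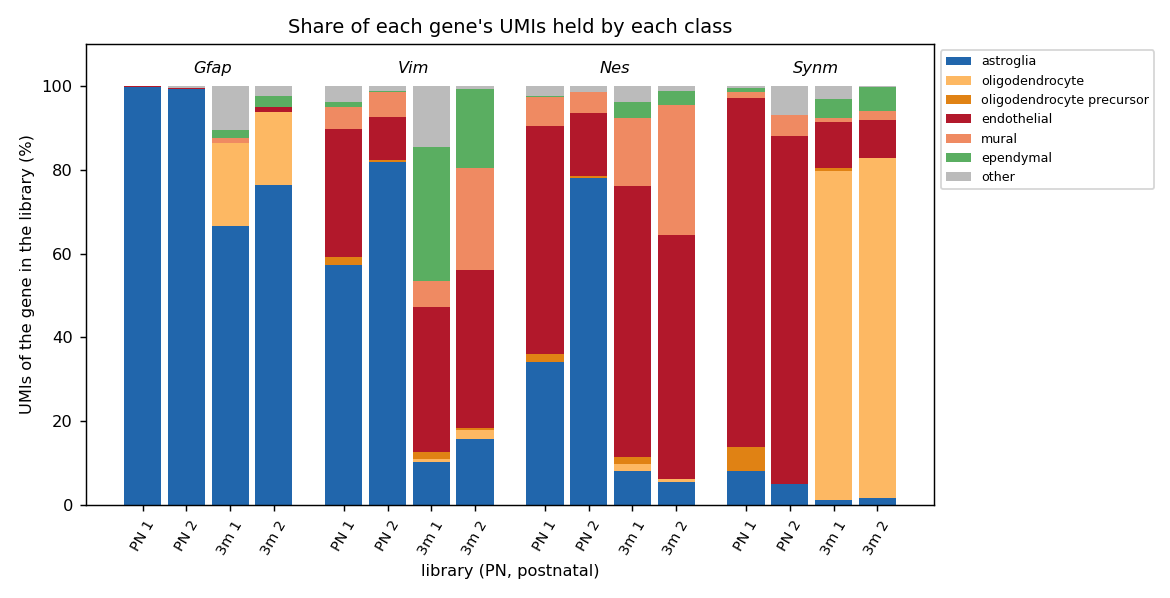
Share of each gene's UMIs that lay in each class, by library (stacked bars, percent of the UMIs of that gene in the library). Most Gfap UMIs lie in astroglia-like cells in all 4 libraries. The astroglial share of Vim and Nes is lower in both 3m libraries than in both postnatal ones, although in postnatal replicate 1 most Nes UMIs (61.3%) were already vascular, and most Synm UMIs lie in endothelial-like cells postnatally and in oligodendrocyte-like cells at 3m.

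Likeness of pattern was measured as Pearson's r of log2(CPM + 1) over the 17 sums of at least 20 cells, which share 4 libraries and are therefore not independent. Vim and Nes followed each other closely (r = 0.956), and Gfap followed neither (r = -0.0549 and -0.167). Synm had r = 0.293 with Nes, 0.0617 with Vim and -0.643 with Gfap. The genes outside the family most like Vim were Fkbp9 (0.962), Sept11 (0.935) and Amotl1 (0.934). For Nes they were Grb10 (0.964), Fkbp9 (0.953) and Txn1 (0.949). For Gfap they were Hgf (0.896), Gm17455 (0.890) and P4ha3 (0.883), and for Synm 4931406P16Rik (0.960), Rtl8b (0.938) and Cpd (0.916).

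Other genes of the filament system and of glial immaturity give the setting in astroglia-like cells. Of 15 other intermediate filament genes 4 were high enough to test and 1 was called, Lmnb1, a lamin of the nuclear envelope, which was lower at 3m (log2 fold change -2.26 ± 0.36, edgeR adjusted p = 0.00635), beside 10.4% of all genes called lower. The median over the 4 was -0.38, against -0.00108 over all genes tested. Of 6 filament linkers 4 were tested, and the cytolinkers Dst (1.46 ± 0.14) and Macf1 (1.30 ± 0.19) were called higher, where 14.1% of all genes were. In cycling postnatal cells Lmnb1 was higher by 3.42 ± 0.20.

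Of 11 radial glia and progenitor genes all were tested, 6 were called lower and 0 higher at 3m, with a median log2 fold change of -1.23, beside 10.4% of all genes called lower. The lowest were Fabp7, a fatty acid binding protein of radial glia (-4.88 ± 0.37), Tnc, a matrix glycoprotein (-4.00 ± 0.41), and Prom1 (-2.49 ± 0.26). Of 10 cell-cycle genes 6 were called lower, beside the same 10.4%. For the lists that follow, 14.1% of all genes were called higher and 10.4% lower. Of 11 reactive astrocyte genes, which rise with Gfap in injured tissue, 5 were tested and 1 was called, Cp, which encodes ceruloplasmin and was higher at 3m (3.02 ± 0.41). Astroglia-like Cp was low, with 1.19 and 1.49 CPM postnatally and 10.6 and 8.19 CPM at 3m. Endothelial-like cells had 18.4 and 16.7 CPM of Cp postnatally and 346 and 215 CPM at 3m. Mural-like cells had 123 and 83.9 CPM postnatally and 454 and 544 CPM at 3m. The part of free vascular RNA in the astroglia-like Cp values was not tested. Of 9 fibrous astrocyte genes 8 were tested, with the metallothioneins Mt1 (3.00 ± 0.29) and Mt2 (2.18 ± 0.18) called higher and Cd9 (-1.45 ± 0.26) called lower. Of 11 gliogenic signalling genes all were tested, with Cntfr, a receptor subunit for ciliary neurotrophic factor, called higher (2.02 ± 0.16) and the transcription factor gene Nfix called lower (-1.01 ± 0.18).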

How the data were processed

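The deposited table holds raw UMI counts, 1 row a gene and 1 column a barcode. Per the labels and the methods of the study, striatal cells were enriched by magnetic sorting, prepared with the 10x 3' kit, aligned to mm10 and counted with Cell Ranger, with Seurat 3.1.1 named in the submitters' processing notes and a later version in the methods. Runs of a library were already merged. Barcodes started at 500 to 502 UMIs. As in the study, barcodes above 10% mitochondrial UMIs or below 500 genes were dropped. Cell classes came from marker gates, and the margin of 10 percentage points was set after cell numbers and levels had been seen. No doublets were removed in the main analysis. Scrublet in Scanpy 1.11.5 marked 3, 3, 24 and 4 cells, and leaving these out was an alternative. Its automatic threshold in 3m replicate 1 moved with numerical rounding, so double precision was used. Counts were summed per class and library, with at least 20 cells per sum, and tested with edgeR 4.0.16 (quasi-likelihood, TMM, filterByExpr, Benjamini-Hochberg over all genes tested). DESeq2 1.42.0 was an alternative. The code was tested on simulated data. The 4 genes, the gene lists and the tests were chosen with earlier results of these data known. Genes named were the 4 members, the 3 most like each, and up to 3 called genes at each end of a list. S100a8, S100a9, Mgp, Col3a1, Mbp and Kif5a were named outside this rule, after their values were seen. The 2 libraries of an age differed beyond sampling noise, with chi-square values over degrees of freedom of 27.9 (postnatal) and 3.56 (3m) for their astroglia-like sums.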

Additional observations from a re-analysis of the deposited data

Results flagged for a closer look

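The age difference of 2 genes differed between classes by a test of the difference itself. The interaction of astroglia-like against endothelial-like cells was -3.59 on the log2 scale for Vim and -4.20 for Nes, and against mural-like cells it was -2.60 for Vim and -3.99 for Nes. The depth of the postnatal endothelial-like cells and their mural marker UMIs, given with the results, moved with the first pair of values, and the mural-like Col3a1 level moved with the second. Their part was not tested.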

How the results depend on the processing

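In astroglia-like cells Vim and Nes kept their direction and their call under every alternative run, and Synm was not called under any (it could not be fitted with the stricter gate or with cells holding UMIs of other classes left out). Gfap kept its direction, and its log2 fold change without 1 library ranged from -4.01 to -1.53, losing its call without either 3m library (-3.33 and -3.13, edgeR adjusted p of 0.110 and 0.128). The number of genes called between the ages in astroglia-like cells was 2910, ranged from 1143 to 3591 without 1 library, was 1315 with cells holding UMIs of other classes left out, and 4444 by adjusted p alone. DESeq2 called 2526. In whole libraries it was 4179, and 6530 by adjusted p alone. Without a scaling factor the median of all genes in astroglia-like cells moved to -0.26 and the share of calls that were higher went from 57.5% to 38.7%. The same change moved this share from 52.2% to 66.6% in endothelial-like cells, from 53.8% to 20.7% and from 58.4% to 34.5% in the interactions against endothelial-like and mural-like cells, and, at 3m, from 45.6% to 56.4% (endothelial over astroglia), 43.3% to 58.7% (mural over astroglia) and 46.6% to 62.4% (mural over oligodendrocyte). The interaction against endothelial-like cells called 1368 genes, 2164 without scaling, and 880 to 1543 without 1 library, and that against mural-like cells called 577, and 330 to 782 without 1 library. The 4 interactions of Vim and Nes were called under every alternative run. The postnatal Vim difference of endothelial-like from astroglia-like cells turned to -0.19 without postnatal replicate 1 and ranged up to 0.67 without another library. The Synm share difference between the ages turned to -0.19 points without thinning, -0.24 at 4000 UMIs, -0.10 with the stricter gate and -0.30 with a gate margin of 20 points, an alternative added after seeing the data. The cause of these changes was not tested. Replicate numbers in the labels share no stated litter or day. Same-numbered libraries deviated together with r = 0.118 over genes, and with the replicate block 3090 genes were called, with the Gfap log2 fold change at -2.81.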

Other observations

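Beyond the comparisons above, 26, 61, 28 and 9 kept cells fell in no class (4.68%, 8.44%, 2.5% and 1.25% of cells). In postnatal replicate 1 these cells had 1030.0 CPM of Vim, but only 6 of the 26 held a Vim UMI. Microglia-like cells, 24 in 3m replicate 1, had 4 Vim UMIs and 1 Gfap UMI. With 2 libraries an age, values that rest on few UMIs, such as Nes and Synm in astroglia-like cells at 3m, limit what can be separated, and intervals cover counting error only because cells of a library are not replicates. Single cells with no UMI of a gene may still express it below this depth.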
